A study of Mus musculus with 4 samples.

Results

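MHC class II high cells of the mouse kidney were those in which the transcripts of Cd74, H2-Aa, H2-Ab1 and H2-Eb1 together reached at least 4 UMIs (unique molecular identifiers, each counting 1 captured transcript) and at least 40 per 10000 UMIs of the cell. In addition, Pecam1, Cdh5, Kdr and Tie1, genes of endothelial cells, had to stay together below 12 per 10000 UMIs. Of 10535 cells, 86 (0.816%) met this rule. They were proposed as myeloid cells, and the label held for most of the control cells and for only a few of the hypertension cells, as described below. The members were chosen by the measured levels of these 4 class II and 4 endothelial genes, whose values are therefore given as a description with no test.

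The kidneys came from C57BL/6J mice of 10 to 14 weeks in 4 treatment groups. The A2 HTN group had hypertension induced by angiotensin II, and the SS HTN group had the salt sensitive form. The control groups were A2 Ctrl, which received saline, and SS Ctrl, which ate a normal diet. In every group the kidneys of all animals were pooled, digested and taken through magnetic beads for CD31 and then for podoplanin, so that each group is 1 droplet 3' library of a selected suspension and animals cannot be told apart. The study's stated target is CD31+ and podoplanin+ lymphatic endothelium, and how the cells described here came through the selection was not tested. The deposited control table holds 2 libraries, separated by their barcode ending and called control library 1 and control library 2. They were not tied to a model and were pooled as the control. With 1 library in each hypertension group no difference was tested, and the intervals printed are 95% intervals that cover counting error only.

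MHC class II molecules present peptides from proteins that a cell has taken up to CD4+ T cells. The alpha and beta chains, encoded in mice by H2-Aa and H2-Ab1 for I-A, assemble with the invariant chain Cd74, which blocks the groove and guides the complex to endosomes. H2-Eb1 encodes the beta chain of I-E, and only its transcript was measured here. Cathepsin S (Ctss) trims the invariant chain, and H2-DM exchanges its remnant for peptide. Macrophages, dendritic cells and B cells carry these genes constitutively under the transactivator Ciita. Resident macrophages of the kidney also make the complement component C1q, whose chains are encoded by C1qa, C1qb and C1qc, and C1qa is therefore a check of the label that the rule did not use.

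The class II genes share a promoter element, the Y box, an inverted CCAAT motif bound by NF-Y. The 250 bases before the start of transcription are shown for H2-Aa and H2-Eb1, which are part of the rule, and for H2-DMb1, which is not. The sequences are those of RefSeq on GRCm38.p6. H2-Aa lies on the minus strand (chr17:34287824-34288073), H2-Eb1 on the plus strand (chr17:34305617-34305866) and H2-DMb1 on the plus strand (chr17:34152941-34153190). Capitals mark each match to GATTGG or to its reverse complement CCAATC.
H2-Aa: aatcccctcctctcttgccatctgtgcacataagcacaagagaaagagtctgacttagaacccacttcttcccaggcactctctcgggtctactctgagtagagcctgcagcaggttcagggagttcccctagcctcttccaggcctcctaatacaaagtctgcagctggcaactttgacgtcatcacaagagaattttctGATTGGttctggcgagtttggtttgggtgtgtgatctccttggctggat
H2-Eb1: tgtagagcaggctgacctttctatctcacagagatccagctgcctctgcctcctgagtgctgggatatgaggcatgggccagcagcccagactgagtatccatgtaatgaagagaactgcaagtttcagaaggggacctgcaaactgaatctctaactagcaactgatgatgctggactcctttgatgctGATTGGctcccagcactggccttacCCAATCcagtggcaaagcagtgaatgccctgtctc
H2-DMb1: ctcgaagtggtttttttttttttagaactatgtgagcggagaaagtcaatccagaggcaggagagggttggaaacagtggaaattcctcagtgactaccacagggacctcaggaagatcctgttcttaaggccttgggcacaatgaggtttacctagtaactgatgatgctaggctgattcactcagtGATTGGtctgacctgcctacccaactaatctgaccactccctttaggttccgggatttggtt
GATTGG began 49 bases before the start in H2-Aa, 60 bases before it in H2-Eb1 and 62 bases before it in H2-DMb1, and H2-Eb1 held a CCAATC 35 bases before its start as well. The motif was present on either strand in 4783 of 32851 such windows (14.6%). H2-DMa had 2 windows, of which 1 held a match. The windows of C1qb, C1qc, Ctss, Fcer1g and Lyz2 held no match. H2-Ab1, C1qa and Tyrobp had no entry and are named only.

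The 86 members comprised 16 of 2837 A2 HTN cells, 9 of 3284 SS HTN cells and 61 of 4414 control cells. These are shares of 0.564% (exact binomial interval 0.323 to 0.914) in A2 HTN, 0.274% (0.125 to 0.520) in SS HTN and 1.38% (1.06 to 1.77) in control. The control libraries did not share this level, with 14 of 2406 cells (0.582%, 0.318 to 0.974) in library 1 and 47 of 2008 cells (2.34%, 1.72 to 3.10) in library 2. The interval of control library 1 overlaps those of both hypertension libraries, and the interval of control library 2 lies above all others. The difference of the pooled control from A2 HTN therefore rests on library 2. Median depth per cell was 1795 UMIs in A2 HTN, 1785.5 in SS HTN, 973 in control library 1 and 557 in control library 2, so the library with the highest share was the shallowest, and the part of depth in the shares was not tested. No member's barcode occurred in another library.

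The members of the hypertension libraries stood close to the limit of the rule, and those of the control did not. In A2 HTN the class II level ran from 45.1 per 10000 UMIs over a median of 66.4 to 1442. In SS HTN the lowest, median and highest level were 47.8, 79.7 and 940, and in control 72.3, 468 and 1542. A level of 100 per 10000 was reached by 4 of 16 members in A2 HTN, by 3 of 9 in SS HTN and by 57 of 61 in control. The 3 members nearest the limit had 45.1, 50.3 and 51.8 per 10000 in A2 HTN, and the 3 cells nearest below it 38.2, 32.9 and 30.7. In SS HTN the 3 lowest members had 47.8, 60.1 and 62.1 and the nearest cells outside 29.0, 27.9 and 26.4. In control the lowest members had 72.3, 82.5 and 89.2 and the nearest cells outside 31.3, 26.8 and 22.4, which leaves the widest gap of the 3 tables.

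The endothelial limit acted unequally. Before it, 70 cells of A2 HTN, 29 of SS HTN and 67 of control were past both class II limits. It removed 54 of these (77.1%) in A2 HTN, 20 (69.0%) in SS HTN and 6 (8.96%) in control. Without this limit the shares were 2.47% in A2 HTN, 0.883% in SS HTN and 1.52% in control, so A2 HTN then lay above the pooled control. The control libraries were again apart without the limit, at 0.623% (0.349 to 1.03) in library 1 and 2.59% (1.94 to 3.38) in library 2, so A2 HTN was above library 1 and not above library 2. In another alternative, cells were thinned to 500 UMIs, those below 500 UMIs were left out, and the limit was 2 class II UMIs. The shares were then 2.30% in A2 HTN, 1.46% in SS HTN and 2.22% in control. The removed cells had median class II levels of 60.6 per 10000 in A2 HTN and 48.4 in SS HTN, at median levels of the 4 endothelial genes of 31.7 and 30.5. Of the 6 removed control cells, 2 had 1472 and 663 class II UMIs per 10000 and an endothelial level of 12.3, just past the limit. Members held 8.30% of all UMIs of the 4 class II genes in A2 HTN, 33.0% in SS HTN and 84.4% in control (61.8% in library 1 and 90.4% in library 2). Most class II transcripts of the hypertension libraries thus lay outside the members.

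**Figure D1:**
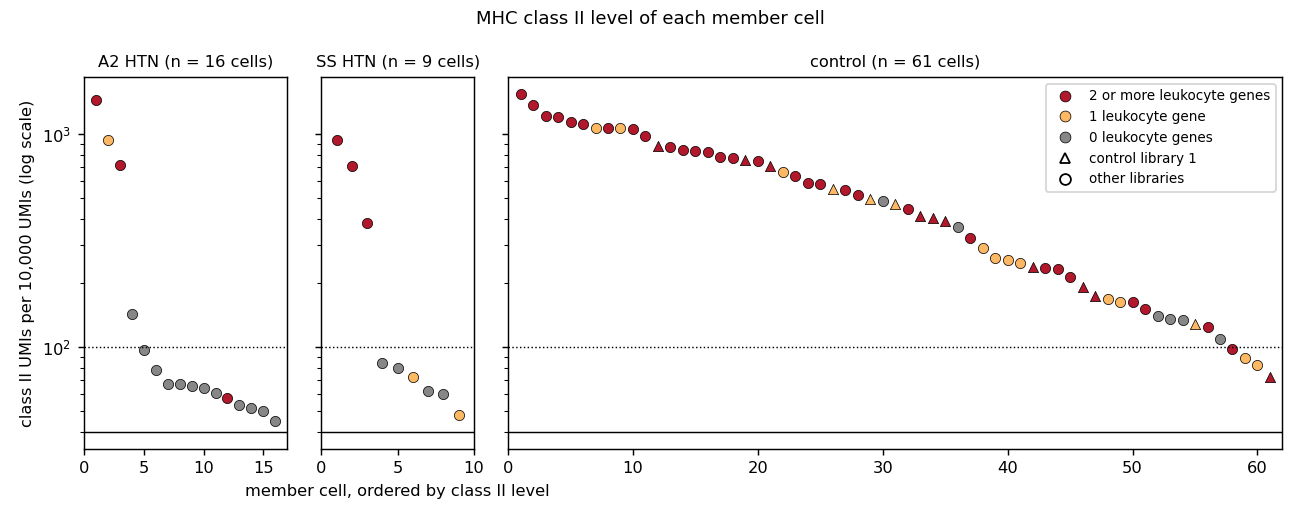
Class II level of every member cell (UMIs of Cd74, H2-Aa, H2-Ab1 and H2-Eb1 per 10000 UMIs, log scale), ordered within A2 HTN, SS HTN and control, with the rule's limit of 40 as a solid line and 100 as a dotted line. Colour gives how many of 6 leukocyte genes had a UMI, and triangles are control library 1. In A2 HTN 12 of 16 and in SS HTN 6 of 9 members lie below the dotted line, against 4 of 61 in control.

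Genes of leukocytes that the rule did not use separated the members in the same way. Of the pan-leukocyte list, 6 genes are listed in all 3 tables, namely Ptprc (CD45), Fcer1g, Laptm5, Cytip, Lcp1 and Arhgdib. At least 2 of them had a UMI in 3 of 16 A2 HTN members, in 3 of 9 SS HTN members and in 40 of 61 control members. None of them had a UMI in 12 A2 HTN, 4 SS HTN and 6 control members. Among the 12 A2 HTN members below 100 per 10000, 11 had no UMI of these genes, and kidney tubule markers made up at least 1% of the UMIs in 8. Among the 6 such members of SS HTN, 4 had no leukocyte UMI, and 2 had tubule markers and 2 had endothelial markers outside the rule (Emcn, Egfl7, Plvap and others) at 1% or more. These hypertension members are called class II high cells here and not myeloid cells. Counting only members with 2 of the leukocyte genes, the shares of cells were 0.106% in A2 HTN (3 cells), 0.0914% in SS HTN (3 cells) and 0.906% in control (40 cells).

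The few hypertension members with a high class II level can be given cell by cell. In A2 HTN the member with the highest level had 200 class II UMIs of 1387, 25 UMIs of C1qa and C1qb and 9 UMIs of the 6 leukocyte genes. The next had 63 class II UMIs of 671 with 9 C1q UMIs and 1 leukocyte UMI, and the third had 51 of 711 with 2 C1q UMIs and 8 leukocyte UMIs. The fourth had 86 class II UMIs of 6015 but no C1q and no leukocyte UMI, with 7 UMIs of the rule's endothelial genes (11.6 per 10000) and 38 UMIs of other endothelial genes. In SS HTN a pair of members had 328 and 325 class II UMIs of 3490 and 4613, each with 42 C1q UMIs, and 21 and 17 leukocyte UMIs. The third SS HTN member above 100 per 10000 was the deepest of all, with 311 class II UMIs of 8168, 31 leukocyte UMIs and 0 UMIs of C1qa and C1qb. Thus 3 A2 HTN and 2 SS HTN cells carried high class II with at least 1 UMI each of C1q and leukocyte genes. These are not the same 3 A2 HTN cells as those with 2 leukocyte genes, since the second had only 1 leukocyte UMI. Its place there is taken by a member at 57.9 class II UMIs per 10000, with 1 C1q UMI and 1.74% tubule UMIs.

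The 4 rule genes did not make up class II transcripts in equal parts, and their mixture is given here as a description, since the rule used them. Cd74 gave 49.9% of the 509 class II UMIs of A2 HTN members, 37.9% of the 1027 of SS HTN members and 42.3% of the 6240 of control members. H2-Eb1 gave 17.3% (14.1 to 20.9), 25.4% (22.8 to 28.2) and 23.1% (22.1 to 24.2), in the order A2 HTN, SS HTN and control. H2-Ab1 gave 15.3% (12.3 to 18.8) in A2 HTN, 21.3% (18.9 to 23.96) in SS HTN and 19.2% (18.3 to 20.2) in control members. For comparison, cells with at least 2 UMIs and 12 per 10000 of the rule's endothelial genes are called endothelial-gene cells, numbering 1304 in A2 HTN, 1626 in SS HTN and 208 in control. In them H2-Ab1 gave a larger part, at 26.3% in A2 HTN, 29.9% in SS HTN and 32.1% in control. H2-Eb1 gave a smaller part in A2 HTN (12.4%, 11.5 to 13.3) and in SS HTN (14.5%, 12.6 to 16.4). In control its part of 18.9% (13.7 to 25.1) had an interval that overlaps that of the members. A single cell gave 200 of the 509 class II UMIs of A2 HTN members.

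Because 61 of the 86 members are control cells, the transcriptome of the members was described there, against the 4353 other control cells of the same libraries. Levels are UMIs summed over cells and scaled to equal totals as CPM, and genes were ranked by the log2 ratio of CPM + 50, which understates the difference of low genes. Of 11659 genes with 20 or more UMIs, 223 were higher in members by a log2 ratio of 2 or more (1.91%) and 286 were lower (2.45%). The median over all genes was -0.30. Members and other cells differ in type by construction, so these counts describe the cells and test nothing.

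The leading genes were those of macrophages. C1qa had 473 UMIs in members and 45 in the other cells, or 4517 CPM (4119 to 4943) against 10.2 CPM. C1qb reached 4489 CPM against 15.8 CPM, and C1qc 2416 CPM against 7.23 CPM. C1qa was detected in 41 of 61 members (67.2%) and in 0.758% of the other cells, at median depths of 1609 and 763 UMIs. In the 208 control endothelial-gene cells, which were set by the rule's 4 endothelial genes alone, C1qa had 0 UMIs and C1qb 3. The C1q genes lie side by side on chromosome 4 of GRCm38 (C1qa at chr4:136895917-136898803), apart from the class II genes on chromosome 17 (H2-Ab1 at chr17:34257689-34269419). Lyz2, the lysozyme of myeloid cells, had 2722 CPM in members and 19.9 CPM in other cells. Apoe, a lipoprotein made by macrophages, had 7746 CPM against 165 CPM. Aif1, the calcium-binding protein Iba1, had 70 UMIs in members and 11 in other cells.

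Surface and signalling genes of leukocytes followed among the 25 highest genes. Tyrobp and Fcer1g, adaptors that carry the signals of activating immune receptors, had 1910 and 2072 CPM in members, against 19.2 and 27.8 CPM in other cells. Cd52, a surface glycoprotein of leukocytes, had 2435 CPM against 45.4 CPM. Ctss, the protease that trims the invariant chain, had 1996 CPM against 13.3 CPM. The others with an immune role were Wfdc17, Cst3, Ly86, Ifi27l2a, Ctsc, Ighm and Lst1, with log2 ratios between 3.48 (Lst1) and 4.68 (Wfdc17). Tmsb4x, which sequesters actin monomers, was the most abundant of the 25 genes at 15424 CPM in members against 1061 CPM in other cells. The remaining 7 were the ribosomal protein genes Rps28, Rpl39, Rps29, Rps24, Rpl32, Rpl34 and Fau.

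**Figure D2:**
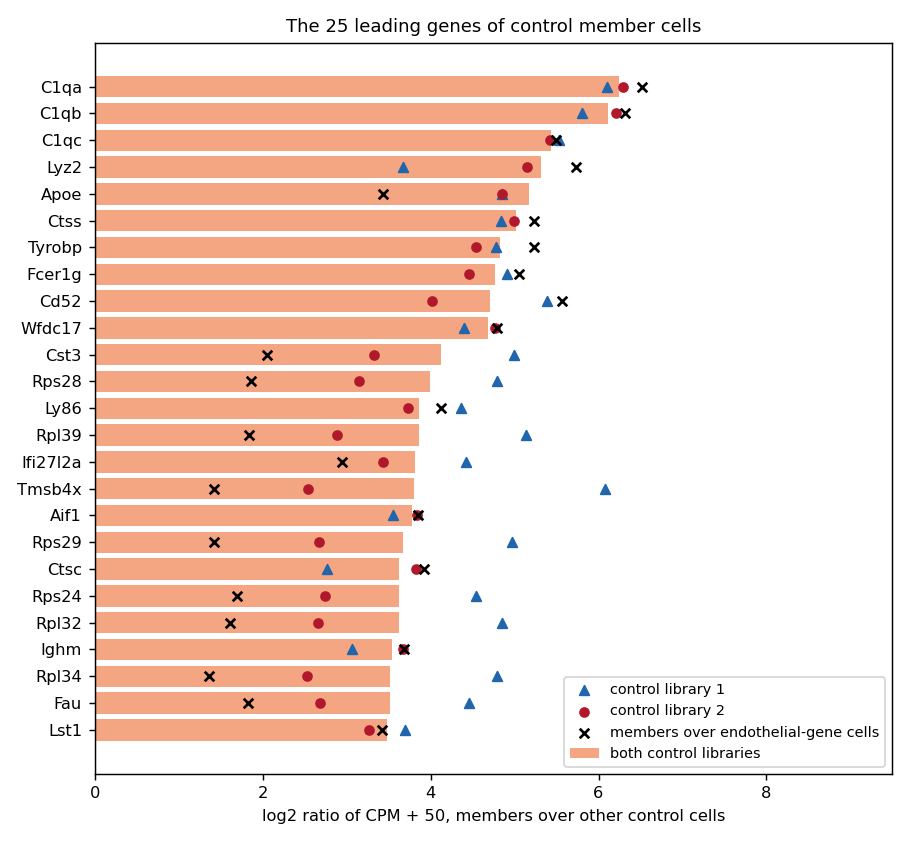
Log2 ratio of CPM + 50 for the 25 genes with the highest ratio of control members over other control cells, outside the rule (bars, both control libraries). Triangles and circles give control library 1 and control library 2, and crosses give the ratio over control endothelial-gene cells. C1qa leads at 6.25, with 6.10 in library 1 and 6.29 in library 2, and the ribosomal protein genes and Tmsb4x drop most when endothelial-gene cells are the comparison (Tmsb4x to 1.42).

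The genes that load class II molecules went with the rule genes without being part of it. Of 8 such genes with enough UMIs, 6 passed a log2 ratio of 2, and the list's median was 2.57 against -0.30 over all genes. H2-DMa and H2-DMb1, the subunits of the peptide exchanger, had 563 and 544 CPM in members against 9.72 and 10.4 CPM in other cells. Ciita, the transactivator of the class II genes, had 344 CPM against 19.2 CPM. Ifi30, the endosomal thiol reductase GILT, had 287 CPM against 7.46 CPM, and the costimulatory ligand Cd86 had 287 CPM against 6.10 CPM. Lgmn, a lysosomal endopeptidase, was short of the fold at a log2 ratio of 1.36 and was below 0 in library 1 (-0.32). Cd40, the other gene short of it, had 4 UMIs in members.

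Endothelial cells express MHC class I genes as well, so that list was also set against the 208 control endothelial-gene cells. Library 2 held 154 of these cells and 362685 of their 433063 UMIs, so the comparison rests mostly on library 2. Over those cells 128 of 5750 genes were higher in members by a log2 ratio of 2 (2.23%) and 216 were lower (3.76%). Of 12 class I genes, 5 passed the fold over all other control cells, with B2m, the light chain of class I molecules, at 2435 CPM in members against 326 CPM in other cells. Over endothelial-gene cells none of the 12 passed it and the median was -0.01, with B2m at 2358 CPM in those cells. H2-D1 and H2-K1, heavy chains with near-identical copies whose shared reads cannot be assigned here, had log2 ratios of -0.24 and -0.08 in that comparison. The interferon response list was lower than in endothelial-gene cells, with a median of -1.05 over 25 genes and 4 above 0. Against all other cells its median was 0.39, at 0.80 in library 1 and -0.07 in library 2, so its direction depended on the library. Ifi27l2a (log2 ratio 3.81) was the only one of 26 interferon genes past the fold upward, and Rsad2, an antiviral enzyme, the only one past it downward, with 0 UMIs in members and 198 CPM in other cells.

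Fc receptor genes and their adaptors were past the fold in 7 of 7 genes, at a median of 2.19. They include the inhibitory receptor Fcgr2b (296 CPM in members against 26.0 CPM in other cells) and the kinases Lyn and Syk. Of the macrophage list 12 of 13 genes passed, at a median of 2.81, among them the growth factor receptor Csf1r (506 CPM against 55.1 CPM), Adgre1, which encodes F4/80 (392 CPM against 13.1 CPM) and the fractalkine receptor Cx3cr1 (353 CPM against 9.04 CPM). Mertk, a receptor for apoptotic cells, was the exception, with 95.5 CPM in members and 274 CPM in other cells. Of the pan-leukocyte list 11 of 14 genes passed and all 14 were above 0. The monocyte list had 7 of its 14 genes listed in control, and none passed (median -0.22). The highest, Ccr2, had 17 UMIs in 8 members. The dendritic cell list had 8 of its 18 genes listed. Among these 3 passed, which were Cst3, Plbd1 and Irf8, genes that macrophages or B cells express as well. Genes of both lists that are not listed in control were not analysed. Zbtb46, a transcription factor of conventional dendritic cells, had 2 UMIs in members.

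Lysosomal genes were higher in members by a median of 1.41, and 8 of 19 passed the fold, led by Ctss and by Ctsc, the cathepsin that activates granule proteases. Ctsb (965 CPM in members against 104 CPM in other cells), Ctsh, Ctsz, Npc2 and Psap also passed. Ctsl was lower, with 57.3 CPM against 96.3 CPM. Of the 4 chemokine and receptor genes that are listed, Cx3cr1 and Cxcl16 passed. Of 10 myeloid transcription factors 5 passed, among them Spi1 (PU.1), Runx1, Irf8 and Irf5. In the lipid list Apoe and the galectin Lgals3 were past the fold and Fabp4, a fatty acid carrier of capillary endothelium, was far below, at 19.1 CPM in members against 555 CPM. Scavenger genes of resident macrophages passed only in Mrc1, the mannose receptor, and Folr2, the folate receptor of perivascular macrophages, had 0 UMIs in members. The lipid and scavenger medians were 0.55 and 0.71 with both libraries and -0.14 and -0.03 in library 1.

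Actin genes had a median of 1.77, with 5 of 13 past the fold (Tmsb4x, Coro1a, Lcp1, Pfn1 and Actb). Immediate early and heat shock genes, which also mark tissue dissociation, had a median of 1.08, and the Hsp70 genes Hspa1a (544 CPM against 66.0 CPM) and Hspa1b (554 CPM against 50.6 CPM) passed. These 2 genes are near-identical copies. Oxidative phosphorylation genes had 0 of 16 past the fold (median 0.48), and NF-kB and cytokine genes 0 of 6 (median 0.36). Of 4 cell cycle genes H2afz alone passed (median 0.82). Of the 3 B cell genes listed, Igkc and Ighm passed (median 3.54), and Lck, the only listed gene of T and NK cells, had 0 UMIs in members. Podocyte genes had 0 of 5 past the fold, with a median of -0.71, and of 6 complement genes the 3 C1q genes alone passed.

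Among the lists, ribosomal protein genes gave most of the higher genes, with 73 of 85 past the fold and a median of 3.0. They have many processed copies in the genome, whose reads cannot be told apart here. Their part in a cell's UMIs had a median of 21.6% over control members, of 8.80% over control endothelial-gene cells and of 0.849% over the remaining control cells. The control endothelial-gene cells differed by library, with medians of 1.04% in library 1 (54 cells) and 10.6% in library 2 (154 cells). Over endothelial-gene cells the list's median log2 ratio was 1.14 and none of 84 genes passed the fold. In the hypertension libraries the medians were 7.33% (A2 HTN) and 12.7% (SS HTN) over members, 9.62% and 11.3% over endothelial-gene cells, and 1.72% and 1.44% over the remaining cells. The quartiles of A2 HTN members were 1.73% and 17.2%. Taking ribosomal protein genes out of the totals raised the medians of the immune lists, as for the macrophage list at 3.13, and left their direction.

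**Figure D3:**
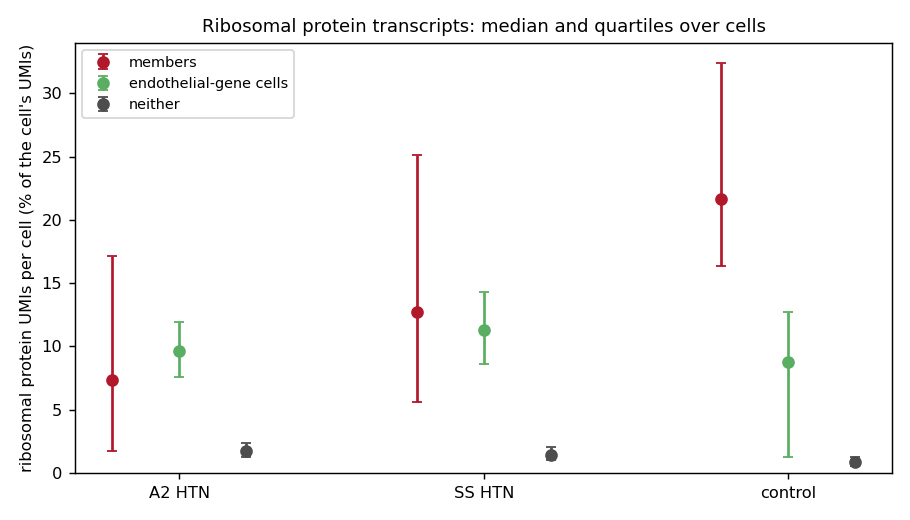
Ribosomal protein UMIs as a percentage of a cell's UMIs (points, median over cells; bars, quartiles) in members, endothelial-gene cells and cells that are neither, for A2 HTN, SS HTN and control. Control members have the highest median at 21.6%, and the cells that are neither stay at 0.849% to 1.72%.

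Among the lowest genes in members were several of tubule epithelium. Slc4a4, the bicarbonate cotransporter of the proximal tubule, had 5 UMIs in members (47.8 CPM) against 1181 CPM in other cells. Lrp2 (megalin) had 95.5 CPM against 1406 CPM, the apical export pump Abcc2 115 CPM against 1889 CPM, and Pkhd1, which encodes fibrocystin, 124 CPM against 1698 CPM. Plpp1, a lipid phosphatase, had 0 UMIs in members and 474 CPM in other cells, and was at 2658 CPM in control endothelial-gene cells. Erc2, Fut9, Magi1, Slc25a21 and Rora completed the lowest 10, with log2 ratios of -3.25 to -3.79. Of the proximal tubule list 9 of 13 genes were past the fold downward and of the distal tubule list 4 of 11. Tubule transcripts were nevertheless present in most members: 58 of 61 had a UMI of the proximal list, which gave 2550 CPM in members against 18284 CPM in other cells. The proximal list was also detected in 99.4% of other cells. The 10 endothelial genes outside the rule summed to 162 CPM in members against 2036 CPM in other cells, and stromal and mural genes to 57.3 CPM against 310 CPM.

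The control members were not of 1 kind. At least 2 UMIs of C1qa, C1qb and C1qc together were found in 43 members (11 of library 1 and 32 of library 2), 1 UMI in 3, and none in 15 (2 of library 1 and 13 of library 2). The median depth was 1609 UMIs in C1q-positive and 2011 UMIs in C1q-negative members. Of the 15 C1q-negative members, 6 had only 459 to 898 UMIs. Class II levels had medians of 664 per 10000 in C1q-positive and 162 in C1q-negative members. Of 739 genes outside C1q and the rule with 20 or more UMIs, 149 were higher in C1q-positive members (20.2%) and 80 lower (10.8%), at a log2 ratio of 1 or more either way with an interval that does not reach 0. The median over these genes was 0.07.

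B cell genes were found in C1q-negative members. Igkc, the immunoglobulin kappa constant region, had 0 UMIs in C1q-positive members and 106 UMIs in 6 of the 15 C1q-negative ones, which makes it at least 85.4-fold lower in C1q-positive members against a floor of 3 UMIs over the group. Ebf1, a transcription factor of the B lineage, had 3 UMIs in C1q-positive and 76 UMIs in C1q-negative members. Ighm, the constant region of IgM, had 19 UMIs in 13 C1q-positive and 45 UMIs in 8 C1q-negative members, so it occurred in both. At least 2 of Igkc, Ighm and Ebf1 were present in 0 of 43 C1q-positive and 7 of 15 C1q-negative members. Bach2, which represses plasma cell differentiation, Aff3, Ralgps2, Ripor2, Gimap6, Ets1, Arhgef1 and Fchsd2 completed the 10 lowest genes, with log2 ratios of -2.63 to -4.08. Several of them, Bach2, Ets1 and Gimap6 among them, are lymphocyte genes. These 7 cells carried B cell genes without C1q, which goes against a myeloid label.

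C1q-positive members carried macrophage genes. All 9 macrophage genes tested outside C1q were higher in them, as were 14 of 15 lysosomal genes and 5 of 5 scavenger genes. Tmem176b, a membrane protein of antigen-presenting cells, had 95 UMIs in C1q-positive and 0 in C1q-negative members, at least 13.1-fold higher. The prostaglandin-degrading enzyme Hpgd had 57 and 0 UMIs, the selenium carrier Selenop 59 and 0, and the chemokine Cxcl16 38 and 0. Csf1r had 52 UMIs in C1q-positive and 1 in C1q-negative members, and Cx3cr1 37 and 0. Cd81, Ctsb, Wfdc17, Bst2, Frmd4b and Tanc2 were the others of the 10 highest. Apoe reached 10583 CPM in C1q-positive and 1095 CPM in C1q-negative members.

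Antigen presentation divided along the same line only in part. The class II genes themselves were higher in C1q-positive members by log2 ratios of 1.78 (Cd74) to 2.37 (H2-Eb1), which is a description since the rule used them. H2-DMb1 was also higher, with 54 UMIs against 2, while H2-DMa had 46 against 12 UMIs and its interval reached 0. Ciita had 316 CPM in C1q-positive and 432 CPM in C1q-negative members, with an interval of the log2 ratio from -1.49 to 0.65. Ptprc was the lower of the pair in C1q-positive members, at 796 CPM against 1427 CPM (log2 ratio -0.80). Tubule lists did not separate the groups, with 0 of 6 genes called. One C1q-negative member of library 2 had 18 UMIs of Plbd1, 29 of Cst3 and 4 of Naaa among 3748 UMIs, all on the dendritic cell list, and another had 22 UMIs of Lyz2 and none of Igkc. Plbd1 was detected in 19 of 43 C1q-positive and 1 of 15 C1q-negative members. The remaining C1q-negative members rest on few UMIs, and 5 of the 15 had tubule markers at 1% or more.

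**Figure D4:**
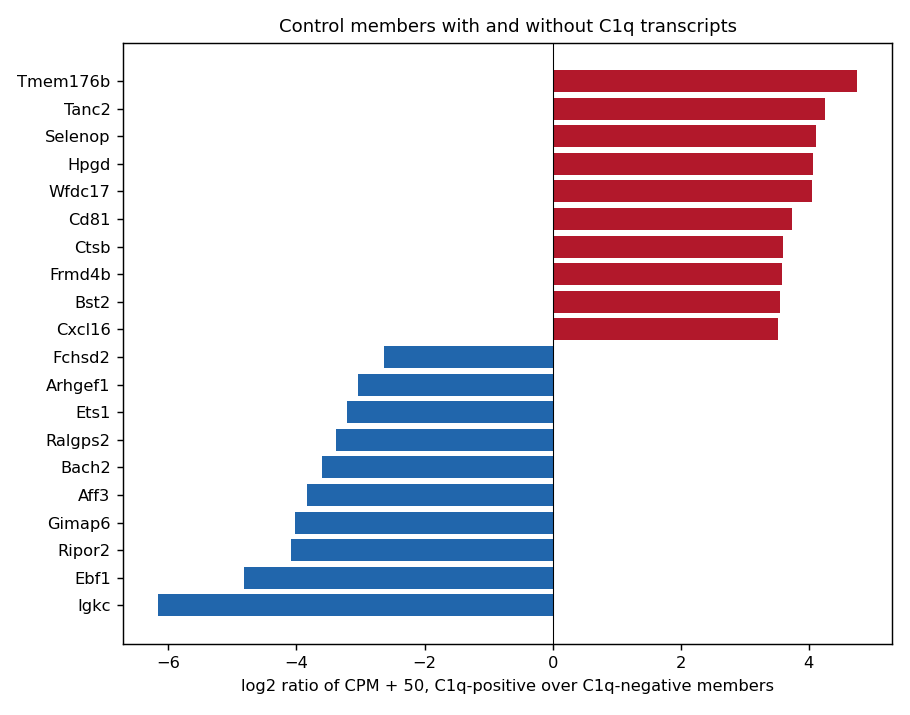
Log2 ratio of CPM + 50 for the 10 highest (red) and 10 lowest (blue) genes of C1q-positive (43 cells) over C1q-negative (15 cells) control members. Tmem176b stands at the top at 4.76 and Igkc at the bottom at -6.16.

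Members of the control libraries differed from each other in some of these genes. Lyz2 had 655 CPM (367 to 1080) in library 1 and 3301 CPM (2919 to 3719) in library 2, and was found in 5 of 14 and 25 of 47 members. One member of library 2 held 109 of its 270 Lyz2 UMIs, and without that cell the level was 2040 CPM (1737 to 2381). Apoe had 4716 CPM in library 1 and 8594 CPM in library 2, and Ctsb, Npc2 and Lgals3 were likewise lower in library 1, with intervals that do not overlap. Runx1 went the other way, with 961 CPM in library 1 and 318 CPM in library 2. C1qa (4104 and 4633 CPM) and C1qc (2620 and 2359 CPM) had overlapping intervals. Since the libraries were not tied to a model, these are differences between a pair of control libraries.

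Fewer than 20 members in each hypertension library allow no ratio to control members, so values are given side by side. C1qa had 23 UMIs in 4 of 16 A2 HTN members (897 CPM, 568 to 1345), 33 UMIs in 2 of 9 SS HTN members (1323 CPM, 911 to 1858) and 473 UMIs in 41 of 61 control members (4517 CPM). Single cells set these sums, since 1 A2 HTN cell held 16 of the 23 UMIs and 1 SS HTN cell 19 of the 33. C1qa and C1qb together gave 1559 CPM in A2 HTN, 3408 CPM in SS HTN and 9006 CPM in control members. Restricted to members with 2 leukocyte genes they gave 9456 CPM in A2 HTN (3 cells) and 5163 CPM in SS HTN (3 cells). Such members gave 9814 CPM in control (40 cells). The 3 A2 HTN cells had 25, 2 and 1 UMIs of C1qa and C1qb. The 3 SS HTN cells had 42, 42 and 0, the last in a cell of 8168 UMIs. Single cells thus set the hypertension values here too, and no order of the libraries is read from them. The cells outside the members had 5.90 CPM of C1qa in A2 HTN, 6.67 CPM in SS HTN and 10.2 CPM in control.

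Fcer1g, Ptprc, H2-DMa, Ifi30 and Ciita each had fewer UMIs in the A2 HTN than in the SS HTN members. Both libraries held 3 members with 2 leukocyte genes, but of unequal depth. In A2 HTN these cells had 1387, 711 and 863 UMIs in all, and in SS HTN 3490, 4613 and 8168. The part of depth in these counts was not tested. Fcer1g had 14 UMIs in 3 A2 HTN members, 29 UMIs in 3 SS HTN members and 217 UMIs in 45 control members. Ptprc had 2 UMIs in A2 HTN members (78.0 CPM), 22 UMIs in SS HTN members (882 CPM) and 101 UMIs in control members (965 CPM). H2-DMa had 1, 15 and 59 UMIs, and Ifi30 0, 18 and 30 UMIs, in A2 HTN, SS HTN and control members. Ciita had 0 UMIs in the 16 A2 HTN members, 9 UMIs in SS HTN members and 36 UMIs in control members, where 0 of 25654 UMIs in A2 HTN allows up to 144 CPM. Of the 25 leading control genes, 18 are listed in the A2 HTN table, and 17 of these were higher in members than in the other cells of that library. Ctsc was the exception, with 0 UMIs in members. In SS HTN 14 are listed and all 14 were higher. The share of all listed genes that were higher is not given, so these counts describe the genes and test nothing. The ribosomal protein genes and Tmsb4x are among the genes counted. In A2 HTN members Lst1 had only 1 UMI and Ly86 only 3 UMIs. C1qc, Lyz2, Tyrobp, Cd52 and Aif1 are among the genes not listed in either hypertension table and were not analysed there.

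Summed over lists of genes that all 3 tables hold, the macrophage list (8 genes) gave 4756 CPM in A2 HTN members, 8700 CPM in SS HTN members and 18433 CPM in control members. The other cells gave 874, 666 and 614 CPM in the same order of libraries. Apoe is part of this list. It gave 2846, 4170 and 7746 CPM in the members and 610, 366 and 165 CPM in the other cells. Of the Apoe UMIs, the member with the most held 45 of 73 in A2 HTN and 86 of 104 in SS HTN. Individual cells thus set much of the hypertension sums, and no order of the libraries is read from the macrophage list. The pan-leukocyte list gave 780 CPM (476 to 1204) in A2 HTN, 2846 CPM (2223 to 3590) in SS HTN and 4919 CPM (4503 to 5362) in control members. Endothelial genes outside the rule ran the other way, with 5925 CPM in A2 HTN, 3648 CPM in SS HTN and 162 CPM in control members. The proximal tubule list gave 6120 CPM in A2 HTN members against 5285 CPM in the other A2 HTN cells, and no order is read from this pair. It gave 2365 CPM in SS HTN and 2550 CPM in control members. Markers of other cell types thus moved with the library in the members, and their part in each difference between libraries was not tested.

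**Figure D5:**
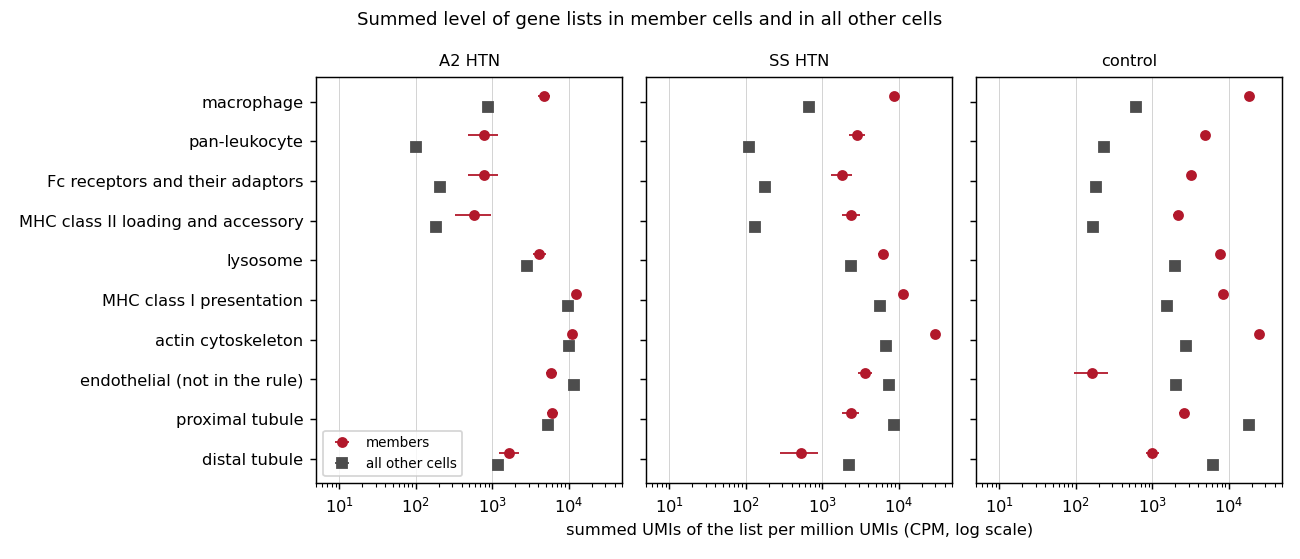
Summed UMIs as CPM (log scale) of 10 gene lists in members (circles) and in all other cells (squares) of A2 HTN, SS HTN and control, with exact Poisson intervals as bars. Members and other cells are far apart for immune lists in control (macrophage 18433 against 614 CPM) and close for endothelial and tubule lists in A2 HTN.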

How the data were processed

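The 3 tables used hold deposited counts, which are whole UMI numbers, neither normalized nor annotated by cell type. Per the submitters' processing notes, Cell Ranger 7.0.0, Seurat 4.1 and build mm10 were used, with no roles named. Tables were matched to groups by name and list 12608 (A2 HTN), 12039 (SS HTN) and 11669 genes (control), 11049 of them in all 3. A joined hypertension table served as an alternative. Totals were 7479337 UMIs in A2 HTN, 6471741 in SS HTN and 2801925 and 1727731 in the control libraries, and 25654, 24943 and 104706 UMIs in A2 HTN, SS HTN and control members. The tables hold no mitochondrial genes. No doublet caller was run, so doublets remain.

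Members were found by the rule per cell over all genes of a table. The members and gene lists were chosen with earlier results of these data known. UMIs were summed over cells and scaled to CPM. Ratios are log2 of CPM + 50, and their 95% intervals are exact conditional binomial intervals of the plain ratio, which can lie beyond the printed ratio. Shares have Clopper-Pearson and CPM exact Poisson intervals. Genes named are the rule genes, the fixed lists, the 25 highest outside the rule (higher in both control libraries, a UMI in 20% of members), the 10 lowest (50 CPM or more in other cells) and up to 10 each way in the C1q comparison. To compare depths, cells were thinned to 500 UMIs, and cells below 500 UMIs were left out. The code was checked on simulated counts. Alternatives changed the limits of the rule, the pseudocount, the UMI minimum, the table and the control libraries. The limit of 100 per 10000, totals without ribosomal protein genes, the comparison with endothelial-gene cells and Lyz2 without its highest member were chosen after seeing the data. Python 3.11.15, numpy 2.4.6, scipy 1.17.1 and pandas 2.3.3 were used. Gene positions are from GENCODE on GRCm38, the assembly of mm10. Some results are not reported here.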

Additional observations from a re-analysis of the deposited data

How the results depend on the processing

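The share of A2 HTN cells (0.564%) was 0.247% at 8 class II UMIs, 0.176% at 80 and 0.141% at 100 per 10000, 2.47% without the endothelial limit, 2.30% with cells thinned to 500 UMIs and 0.106% with 2 leukocyte genes required. That of SS HTN (0.274%) was 0.122% at 80, 0.548% at 20 and 0.0914% at 100 per 10000, 0.883% without the endothelial limit, 0.0914% with no UMI of its genes, 1.46% thinned and 0.0914% with leukocyte genes. That of control (1.38%) was 2.22% thinned, 0.906% with leukocyte genes, and 0.582% to 2.34% with 1 control library left out. Without the endothelial limit A2 HTN lies above the pooled control. Control library 1 is then at 0.623% and library 2 at 2.59%, so A2 HTN is above only 1 of them. Thinned, A2 HTN (2.30%) and control (2.22%) lie close together, and no order is read from them. Thinning uses a limit of 2 UMIs and leaves out cells below 500 UMIs. The 223 higher genes became 422 at a pseudocount of 10 CPM, 92 at 200 CPM, 632 at a log2 ratio of 1, 128 over endothelial-gene cells and 159 to 291 with 1 control library left out. The 286 lower genes became 1582, 35 and 1637 under the same pseudocounts and ratio, 174 as a mean over cells and 266 to 435 with 1 library left out. Control members with a UMI of the macrophage list (91.8%) were 79.2% thinned and 89.4% to 100% with 1 library left out. The pan-leukocyte list (96.7%) had 95.7% to 100%, the dendritic cell list (95.1%) 81.1% thinned and the B cell list (42.6%) 26.4% thinned. C1qa and C1qb together were at 5486 CPM in A2 HTN in the joined table, where 14 of its 16 members recur, 1 other member is absent from the separate table and 18 are found in all. They were at 9456 CPM in A2 HTN, 5163 CPM in SS HTN and 9814 CPM in control with leukocyte genes, and at 7772 to 9352 CPM in control with 1 library left out. In the C1q comparison the 149 higher genes became 15 to 111 and the 80 lower genes 27 to 51 with 1 library left out (15 and 27 without library 2), and 46 lower at a pseudocount of 200 CPM. The cause of these shifts was not tested. None of the 25 leading, 10 lowest and 20 C1q comparison genes changed direction in the alternatives run. The 25 leading genes were chosen as higher in both control libraries, so leaving 1 library out could not reverse them. Lgmn, of a fixed list and not chosen in this way, fell below 0 in control library 1 alone (-0.32). The 10 lowest and 20 C1q comparison genes were picked by their ratio in the same data, the latter with intervals that do not reach 0. Several of the latter, such as Tmem176b and Igkc, had 0 UMIs on 1 side. No pseudocount or left-out library could reverse those, so their unchanged direction is not support. Of 350 values of the leading and lowest genes 116 moved beyond counting error, and of 100 in the C1q comparison none. Pseudocounts and the UMI minimum gave no value for hypertension against control members, for which no ratio was formed. No paired analysis was possible because each hypertension group has 1 library and the control libraries carry no number shared with a model. The hypertension values rest on 25 cells.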
